A study of Homo sapiens with 12 samples.

Results

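Ribosomal protein genes encode the protein subunits of the cytoplasmic ribosome, and chromatin accessibility at their transcription starts is described here in HCT116 cells. The members are 56 named genes, 36 of the large subunit (RPL and RPLP) and 20 of the small subunit (RPS and RPSA), listed by name and not by their values. A region of open chromatin was assigned to a gene where it lay within 1 kb of any of its annotated transcript starts on chromosomes 1 to 22, and raw counts were summed per gene. Of the 56 genes, 46 had such a region (30 large and 16 small subunit genes), with 52 regions in all out of 30170 in the deposited table. HCT116 is an established human colorectal carcinoma cell line. ATAC-seq, in which a transposase inserts sequencing adapters into open DNA, had been run on 4 stable derivatives of it with 3 libraries each. EV cells carried an empty vector. EHF cells were geneticin-resistant clones transfected with a plasmid for EHF, an ETS-family transcription factor. CDX1 cells were a sorted GFP-positive population transduced with a retrovirus for CDX1, a caudal-type homeobox factor. EHF+CDX1 cells came from the CDX1 line by transfection with the EHF plasmid and renewed selection of clones. Both factors were therefore driven from vectors rather than from their own loci, and the sources used here do not say whether EV cells also carried an empty retrovirus. Nothing in the labels says whether the 3 libraries of a group came from separate cultures, so p-values measure the spread between these libraries, which may be technical.

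Every ribosome needs one copy of nearly all of these proteins, and their genes are among the most highly transcribed of those that every cell uses. Their promoters are compact and mostly lack a strong TATA box. Transcription typically begins at a C within a run of pyrimidines, and this run becomes the 5′ terminal oligopyrimidine (TOP) tract through which growth signalling controls translation of the mRNA.

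Most member starts lay in such a run. RefSeq promoters on GRCh38, each from 250 bases before to 50 bases after the annotated start, were matched by symbol for 48 of the 56 genes and for 14616 protein-coding genes in all. At 47 of the 48 the RefSeq start was the canonical start of the annotation used for the regions. A run of at least 5 C or T bases that includes the first transcribed base was present in 37 of 48 member promoters (77.1%) and in 7.94% of all promoters. The median length of the run was 11 bases in members and 0 in all promoters. The letters CTTTCC on the gene strand within 20 bases of the start occurred in 33.3% of member promoters against 1.90% of all. The following stretches run from 50 bases before to 20 bases after the first transcribed base on the gene strand, with the C/T run over the start in capitals, and were chosen to show the longest run, genes named repeatedly below and the absence of a run.
RPL7A (chr9:133348168-133348237, plus strand): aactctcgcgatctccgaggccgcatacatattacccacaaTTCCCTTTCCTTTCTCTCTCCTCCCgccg
RPS19 (chr19:41860205-41860274, plus strand): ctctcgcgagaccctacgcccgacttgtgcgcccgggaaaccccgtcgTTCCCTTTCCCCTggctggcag
RPS6 (chr9:19380217-19380286, minus strand): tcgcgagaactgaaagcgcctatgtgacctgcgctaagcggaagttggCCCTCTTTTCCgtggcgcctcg
RPS7 (chr2:3575210-3575279, plus strand): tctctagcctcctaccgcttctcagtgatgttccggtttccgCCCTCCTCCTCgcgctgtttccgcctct
RPLP0 (chr12:120201092-120201161, minus strand): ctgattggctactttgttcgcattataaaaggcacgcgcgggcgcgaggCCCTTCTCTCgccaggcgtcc
RPSA (chr3:39406670-39406739, plus strand): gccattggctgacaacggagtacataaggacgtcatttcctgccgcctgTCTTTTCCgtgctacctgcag
RPL15 (chr3:23917082-23917151, plus strand): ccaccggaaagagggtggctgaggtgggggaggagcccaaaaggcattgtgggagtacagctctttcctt
RPS28 (chr19:8321446-8321515, plus strand): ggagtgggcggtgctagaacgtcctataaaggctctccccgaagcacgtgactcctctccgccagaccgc
The run covered 25 bases in RPL7A, 13 in RPS19, 11 in RPS6 and RPS7, 10 in RPLP0 and 8 in RPSA, while the annotated starts of RPL15 and RPS28 lay on a purine.

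**Figure D1:**
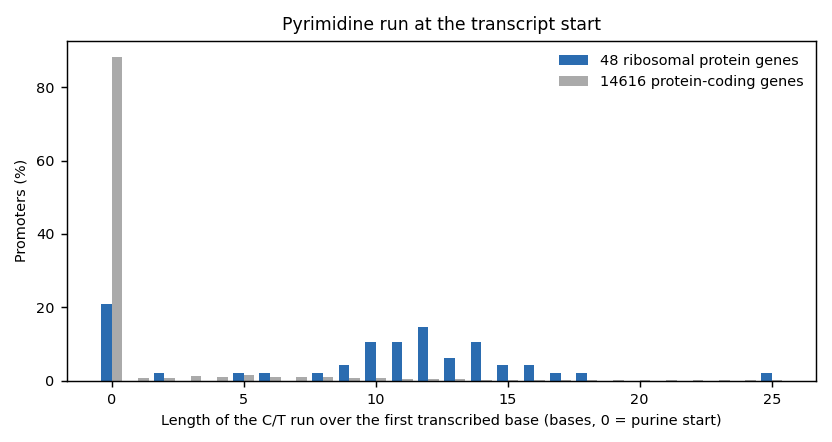
Length of the C/T run over the first transcribed base (x axis, bases, 0 where that base is a purine) against the percentage of promoters with that length (y axis), for the 48 ribosomal protein genes with a RefSeq promoter (blue) and 14616 protein-coding genes (grey; runs over 25 bases are not drawn). Members centre on 11 bases, whereas most other promoters are at 0.

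Binding letters of the introduced factors were counted on both strands of the same promoters. The ETS core CCGGAAG, a sequence that EHF and many other ETS factors can bind, was present in 15 of 48 member promoters (31.2%) and in 14.9% of all promoters. The CDX core letters TTTATG and TTTATT were present in 8.33% and 14.6% of member promoters, against 7.20% and 11.5% of all. AAGATGGC, the letters bound by YY1, was present in 10.4% against 4.16%, and TATAA in 20.8% against 16.2%. In 0 member promoters did matches of different motifs overlap. Member promoters had a median GC content of 59.7% against 64.0% of all. The ETS core lay inside an accessible region of its own gene at 7 members, shown here on the gene strand with the core (or its reverse complement CTTCCGG) in capitals and 10 bases on either side, fewer at the edge of the promoter window.
RPL18 (chr19:48619418-48619424): ctttCTTCCGGaaagctatcg
RPL26 (chr17:8383206-8383212): acttacagaaCCGGAAGcagcgtgtag
RPL31 (chr2:101002236-101002242): gcctggcgacCCGGAAGttgtacttgc
RPL34 (chr4:108620579-108620585): ttttcttcctCTTCCGGggacgttgtc
RPS6 (chr9:19380334-19380340): ttaatctcgcCCGGAAGtaccgcccac
RPS14 (chr5:150449779-150449785): cagaggtataCTTCCGGgacacggaag
RPS25 (chr11:119018392-119018398): gccttttgccCCGGAAGtactcacagc
A match is a description of letters and says nothing of binding. RPS14 held a further match inside its region, and coordinates in this list are those of the 7-base core.

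Accessible regions sat at or just upstream of the starts. All 46 genes had a region within 1 kb of their canonical start, and 30 of the 52 regions covered that base. Of the 52, 49 were centred upstream of it, with a median centre at −99.5 bp, and 40 were centred within 200 bp. Because only uniquely mapped reads were counted and many processed pseudogenes copy the exons of these genes, reads from the transcribed side of a start could be lost, which was not tested. The regions were 150 to 330 bp long (median 175.5 bp), and 34.6% had the shortest length of 150 bp, against 43.5% of the regions at all protein-coding starts. Most genes (41) had 1 region, 4 had 2 and RPL7 had 3. RPS19 had regions at chr19:41859669-41859822 and chr19:41860051-41860203, both upstream of the start. The second region of RPL6 was centred at −9294 bp from its canonical start, at an alternative start. At 15 members a region was also within 1 kb of the start of another protein-coding gene, as for RPL15 with NKIRAS1, RPS25 with TRAPPC4, RPL7A with MED22, RPLP2 with PIDD1 and RPS16 with SUPT5H, and reads there cannot be assigned to one of the pair.

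**Figure D2:**
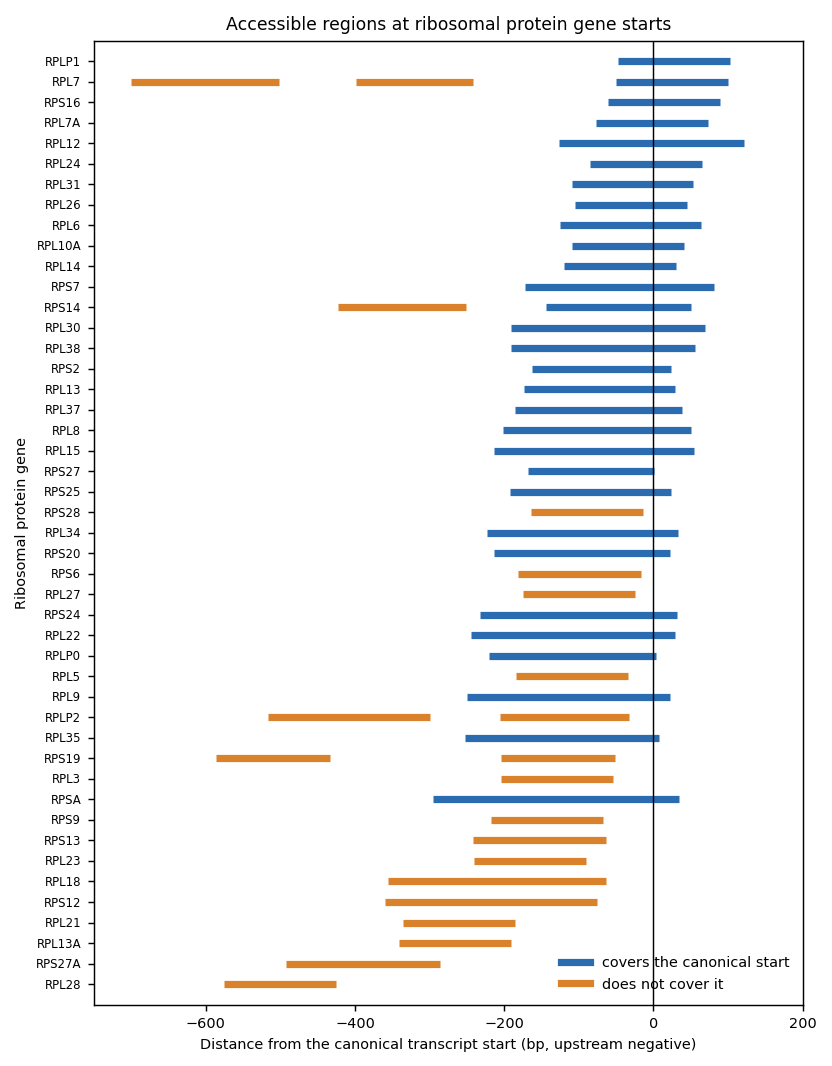
Position of each accessible region relative to the canonical transcript start of its gene (x axis, bp, upstream negative), one row per gene, blue where the region covers the start and orange where it does not. Of the 52 regions, 49 are centred upstream of the start; the distal RPL6 region, centred at −9294 bp, lies outside the axis.

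A region was found at the start of 82.1% of the listed genes against 49.2% of all protein-coding genes on these chromosomes (9402 of 19111). The 10 genes without one were RPL4, RPL11, RPL17, RPL19, RPL29, RPL32, RPS3, RPS15, RPS21 and RPS23. The nearest region to RPL4 was 1875 bp from a start, while the nearest to RPL11 and RPS3 were 107 kb and 150.6 kb away. RPL11 binds, with RPL5, the ribosomal RNA of the central protuberance, and both can inhibit MDM2. A region had to be called as a peak in a library to be listed, and the table gives no counts for the 10 starts, so their accessibility was not measured here. The pyrimidine run was present in 5 of these 10 promoters and in 32 of the 38 with a region and a RefSeq promoter. The ETS core was present in 5 of the 10 and in 10 of the 38.

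Some facts of the libraries bear on every value below. Library totals ran from 567366 to 2443334 counts, and the number of counts at a member start in 1 library ran from 0 to 104 with a median of 11. Of the 552 values, 52 (9.42%) were at 3 counts or fewer, which in EV libraries corresponds to 2.07 to 4.52 CPM (counts divided by the TMM-scaled library size in megareads). In the 3 EV libraries, 65.0% to 73.8% of all counts fell in the 193 regions with a mitochondrial match. The range was 14.5% to 37.2% in the other 9, and none of these regions was at a member start. These totals include counts over EHF or CDX1 exons, 51 to 196 in EV libraries and 169054 to 1916509 in the other 9, which lower the mitochondrial share. Mitochondrial counts themselves overlapped, at 387442 to 721661 in EV libraries and 355132 to 610288 in the other 9. These differences in composition cannot be told apart from any comparison against EV. Once the mitochondrial matches and the 11 regions over EHF or CDX1 exons were left out, starts of protein-coding genes took 37.8% to 39.2% of what remained in EV libraries. The corresponding range was 42.6% to 47.1% for EHF, 40.7% to 45.9% for CDX1 and 41.9% to 47.8% for EHF+CDX1. EHF+CDX1 replicate 2 stood apart, with 169054 counts over EHF or CDX1 exons against 1305194 and 925637 in replicates 1 and 3. It also held the most counts outside mitochondrial and exon regions, 912616 against 148299 to 458392 in the other libraries. Calls over all gene starts in EHF+CDX1 against EV, EHF and CDX1, and the adjusted p of RPS19, are also given without this library. The test region by region was run on all 12 libraries only, and most values of single members are given with this library included. Regions were present at starts of the epithelial genes EPCAM, KRT8, KRT18, KRT19 and CLDN4 and of the intestinal genes CDX2, GPA33 and VIL1, and none at CDH1. Of 3 marker genes of other cell types, the leukocyte gene PTPRC and the endothelial gene PECAM1 had none and the fibroblast collagen gene COL1A1 had one. Mean levels per kb of region were 20.4 (KRT18) to 36.3 CPM (EPCAM) at these epithelial genes and 34.1 CPM at COL1A1. They were 46.6 at CDX2 but 8.90 at GPA33 and 12.5 CPM at VIL1, and the region list is merged over all libraries.

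Per kilobase of region, accessibility at the members was spread around that of other gene starts. The mean level over the 12 libraries had a median of 41.7 CPM per kb over the 46 members with a region. Over the 9402 protein-coding genes with a region it was 36.7 (quartiles 29.0 and 46.0), so starts without a region are absent from both. Of the members, 29 were above the median of protein-coding starts, 17 were above the upper quartile and 7 below the lower quartile. Levels ran from 19.8 to 79.7 CPM per kb, a 4.02-fold range. The median was 41.69 CPM per kb over large and 41.65 over small subunit members. The 15 members that share a region with another coding start had a median of 35.8 CPM per kb and the other 31 a median of 43.98.

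The highest level was at RPL15, a large subunit protein, with 79.7 CPM per kb. It had 12, 27 and 18 counts in EV, 25, 69 and 22 in EHF, 25, 59 and 16 in CDX1 and 42, 60 and 20 in EHF+CDX1 libraries, or 19.6 ± 7.07, 23.7 ± 4.05, 23.7 ± 4.78 and 18.4 ± 5.89 CPM (mean ± SD, n = 3). The 4 groups overlapped. Next came RPS13 at 68.6, RPSA, also known as a laminin receptor, at 60.8, RPS6, the target of S6 kinase, at 60.0 and RPL13 at 58.0 CPM per kb. The dots of these 5 genes overlap along the axis in the plot of levels, so their order is a description of the means. RPSA had 24, 40 and 7 counts in EV, 21, 49 and 28 in EHF, 27, 46 and 15 in CDX1 and 29, 67 and 16 in EHF+CDX1 libraries. Its means were 21.4 ± 9.46, 21.6 ± 3.49, 21.9 ± 3.95 and 15.3 ± 1.97 CPM, and the EHF+CDX1 libraries lay below every EHF and CDX1 library but not below every EV library.

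The lowest level was at RPS16, at 19.8 CPM per kb, with 5, 2 and 1 counts in EV, 4, 3 and 5 in EHF, 2, 4 and 3 in CDX1 and 3, 20 and 5 in EHF+CDX1 libraries. RPS27 (21.2), RPL12 (24.0), RPS14 (25.2) and RPL23 (26.4 CPM per kb) were the next lowest. RPS16 held 5 counts or fewer in every library but EHF+CDX1 replicate 2, so its place in the order rests on few reads. RPS14, whose loss underlies the anaemia of 5q deletion syndrome, had 11, 13 and 5 counts in EV, 15, 20 and 14 in EHF, 6, 23 and 4 in CDX1 and 19, 28 and 10 in EHF+CDX1 libraries over its 2 regions, with overlapping groups.

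**Figure D3:**
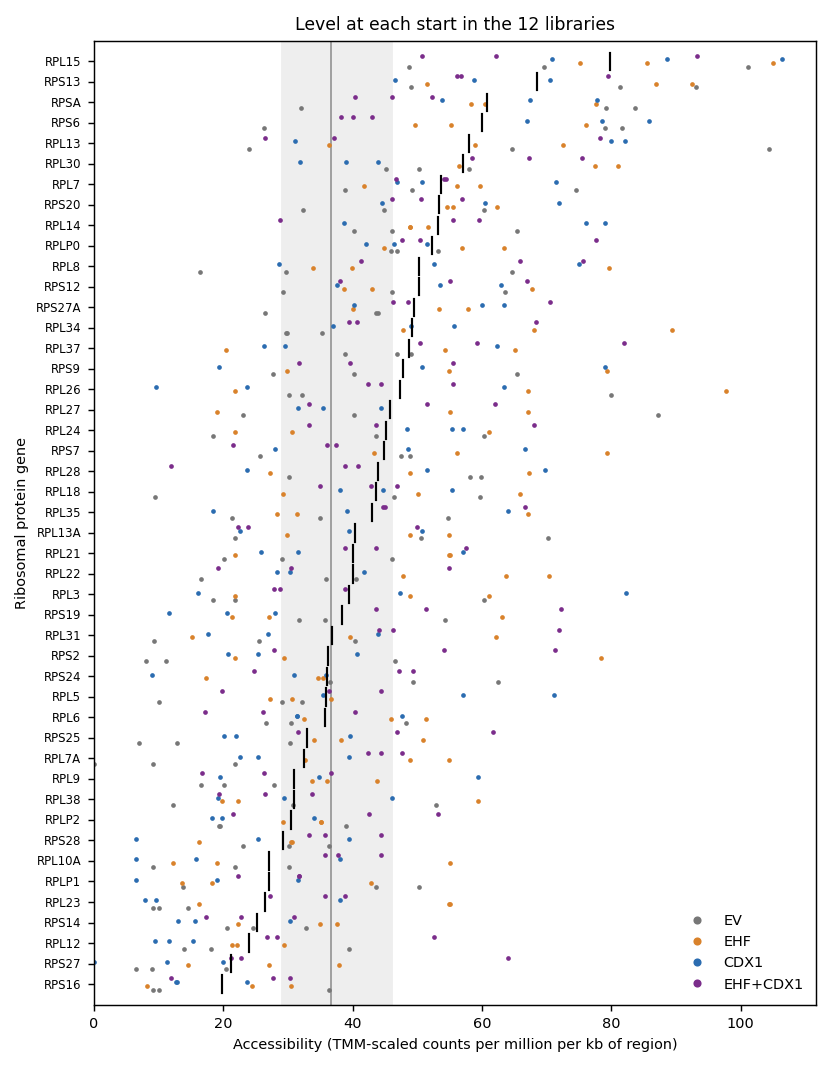
Accessibility at each of the 46 starts (x axis, TMM-scaled CPM per kb of region), one row per gene. Each dot is a library, coloured by group, and the black bar is the mean of 12 libraries. The grey band spans the quartiles of the protein-coding starts with a region, 29.0 to 46.0, and the grey line is their median, 36.7. RPL15 and RPS13 head the order and RPS16 ends it, and dots of the 4 groups are intermingled in most rows.

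The share of protein-coding start counts that fell at member starts needs no scaling factor, and it overlapped between the 4 lines. Per 1000 counts at protein-coding starts, member regions held 4.702 ± 0.54 in EV libraries (mean ± SD, n = 3). The share was 5.11 ± 0.48 for EHF, 4.71 ± 0.54 for CDX1 and 4.82 ± 0.29 for EHF+CDX1. For comparison, members made up 4.89 per 1000 of the protein-coding genes with a region. The single libraries were at 5.18, 4.11 and 4.82 in EV, 5.48, 4.57 and 5.29 in EHF, 5.34, 4.35 and 4.46 in CDX1 and 5.12, 4.54 and 4.79 in EHF+CDX1 cells. They spanned a 1.33-fold range in all, every pair of groups overlapped, and in each group the library numbered 2 was the lowest. Per 1000 counts outside mitochondrial and exon regions, EV libraries (1.611 to 1.955) lay below all EHF libraries (2.116 to 2.491). The CDX1 (1.899 to 2.173) and EHF+CDX1 libraries (1.902 to 2.289) overlapped EV in that share. As given above, all protein-coding starts together also took less of those counts in EV than in EHF libraries. The summed level at members was 400 ± 49.4, 482 ± 75.3, 419 ± 57.4 and 453 ± 51.4 CPM in EV, EHF, CDX1 and EHF+CDX1 cells.

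**Figure D4:**
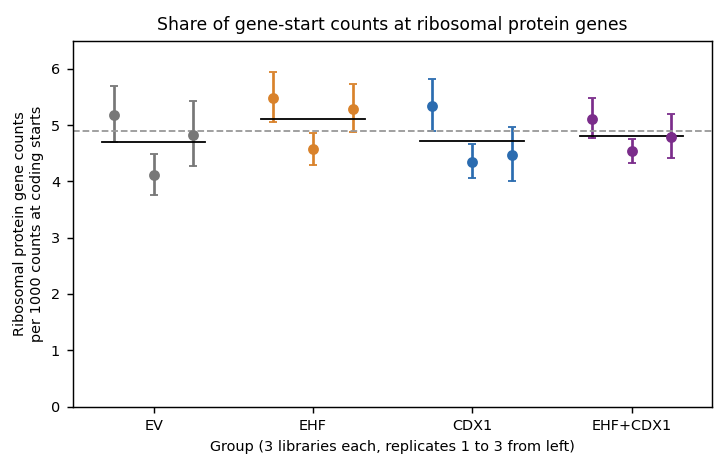
Counts at ribosomal protein gene starts per 1000 counts at all protein-coding starts (y axis) in each of the 12 libraries, grouped by line, with 95% Wilson intervals that cover counting error only; black lines are group means and the dashed line, at 4.89, is the share of members among protein-coding genes with a region. Libraries run from 4.11 to 5.48 and the groups overlap.

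The study asked how restoring EHF and CDX1 bears on the differentiation of colorectal cancer cells. Its groups allow the derived lines to be compared, and not the factors alone. EHF and EHF+CDX1 cells were selected clones and CDX1 cells a sorted population, so every contrast below is between lines. Whether a difference came from a factor or from the vector, selection or clone of a line was not tested. Each comparison was tested over 13590 gene starts with the edgeR quasi-likelihood F-test and Benjamini-Hochberg adjustment over all of them, and a start with an adjusted p under 0.05 was called changed. For EHF against EV, 0 of 46 members were called changed, and 0.00736% of all gene starts were (1 of 13590). The median log2 fold change of the members was 0.24 against 0.14 over all gene starts, and 33 of the 46 values were positive. At an unadjusted p under 0.05 there were 5 members (10.9%) against 5.39% of all gene starts, all 5 with positive values. The EHF and EV libraries did not overlap in CPM at 7 members (15.2%), against 11.2% of all gene starts. The lowest adjusted p among members was 0.854, at RPL7A, in the edgeR test.

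These 5 members were RPL7A, RPL23, RPS25, RPL34 and RPL22. RPL34, a large subunit protein, had 7, 11 and 6 counts in EV and 19, 30 and 25 in EHF libraries, or 8.09 ± 0.82 and 17.5 ± 5.33 CPM, and the 2 groups did not overlap. Its log2 fold change was 1.08 ± 0.41 (SE), with an adjusted p of 0.874 in edgeR. RPS25, which some viral mRNAs need to recruit the ribosome, had 6, 4 and 1 counts in EV and 12, 18 and 9 in EHF libraries, with a log2 fold change of 1.23 ± 0.55. RPL22, which is often mutated in tumours with microsatellite instability, had 9, 16 and 3 counts in EV and 19, 32 and 21 in EHF libraries, or 8.46 ± 3.47 and 16.6 ± 3.18 CPM, with a log2 fold change of 0.84 ± 0.42. RPL7A and RPL23 were among 3 members, with RPL10A, at which every EV library held 3 counts or fewer, so that their fitted values depend on the prior count of the fit. RPL7A had 3, 2 and 0 counts in EV and 8, 12 and 9 in EHF libraries, and the ratio of summed counts per scaled library size was 3.79 (exact 95% interval 1.45 to 12.5, counting error only). RPL23 had 2, 2 and 1 counts in EV and 9, 6 and 9 in EHF libraries, a ratio of 3.14 (1.17 to 10.5). The lowest value was at RPS24, with 12, 14 and 11 counts in EV and 10, 23 and 5 in EHF libraries and a log2 fold change of −0.65 ± 0.44.

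For CDX1 against EV, 0 of 46 members were called changed, and 0.00736% of all gene starts were. The median log2 fold change was 0.04 in members and 0.05 over all gene starts, with 25 of 46 values positive. At an unadjusted p under 0.05 there were 0 members, against 3.36% of all gene starts. The highest value was at RPL7A, with 4, 7 and 5 counts in CDX1 libraries, a ratio to EV of 2.45 (exact 95% interval 0.86 to 8.54). The lowest was at RPLP1, a protein of the acidic stalk that recruits translation factors, with 6, 3 and 5 counts in EV and 3, 2 and 4 in CDX1 libraries and a log2 fold change of −0.99 ± 0.75. RPL5 had 4, 7 and 1 counts in EV and 9, 11 and 9 in CDX1 libraries, or 3.57 ± 1.80 and 8.18 ± 2.69 CPM, and its log2 fold change was 0.98 ± 0.58, with groups that did not overlap. RPS19 had a log2 fold change of −0.91 ± 0.47 with groups that did not overlap either. Over the 46 members the CDX1 and EV libraries did not overlap at 6 (13.0%), against 8.74% of all gene starts.

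For EHF+CDX1 against EV, 0 of 46 members were called changed, while 1.87% of all gene starts were (254 of 13590). The median log2 fold change was 0.22 in members and 0.16 over all gene starts, and 28 of 46 values were positive. Members with an unadjusted p under 0.05 numbered 3 (6.52%) against 16.0% of all gene starts. Without EHF+CDX1 replicate 2 the test called 42 gene starts in all, without EV replicate 2 it called 63, without EV replicate 3 it called 101 and without EHF replicate 2 it called 426, with 0 members in each case. The 4 highest members by fitted value were RPL7A, RPL23, RPS25 and RPS27. RPS25 had 17, 30 and 16 counts in EHF+CDX1 libraries, or 10.1 ± 3.26 CPM against 3.601 ± 2.62 in EV, and its log2 fold change of 1.36 ± 0.53 had an adjusted p of 0.175 in edgeR. RPL7A had 12, 28 and 8 counts, a ratio to EV of 3.99 (exact 95% interval 1.60 to 12.8), and an adjusted p of 0.106 in edgeR, the lowest of any member in this comparison. RPL23 had 9, 18 and 7 counts, a ratio of 2.83 (1.10 to 9.26). With each EV library set to the floor of 3 counts the ratio was 2.04 for RPL7A and 1.55 for RPL23, so their place above RPS25 rests on the few EV counts. RPS27 had 1, 5 and 1 counts in EV and 6, 17 and 13 in EHF+CDX1 libraries, with a log2 fold change of 1.27 ± 0.73. The EV and EHF+CDX1 libraries did not overlap in CPM at these 4 genes, which were picked for their fold changes, and at 10 of the 46 members in all (21.7%), against 19.4% of all gene starts. EHF against EV and EHF+CDX1 against EV share the 3 EV libraries, so a low EV value enters both.

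The 4 lowest were RPL28, RPS6, RPSA and RPS7, and none of them reached an unadjusted p under 0.05. RPL28 had 8, 13 and 3 counts in EV and 3, 27 and 7 in EHF+CDX1 libraries, with a log2 fold change of −0.69 ± 0.51. RPS6 had 4, 19 and 9 counts in EV, 10, 31 and 9 in EHF, 15, 23 and 11 in CDX1 and 12, 28 and 8 in EHF+CDX1 libraries, and its means were 10.3 ± 5.19, 10.0 ± 2.32, 12.8 ± 1.58 and 6.72 ± 0.40 CPM. The EHF+CDX1 libraries at RPS6 lay below every EHF and CDX1 library and overlapped the EV libraries. The log2 fold change of RPS6 against EV was −0.64 ± 0.43 and that of RPSA was −0.55 ± 0.31.

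**Figure D5:**
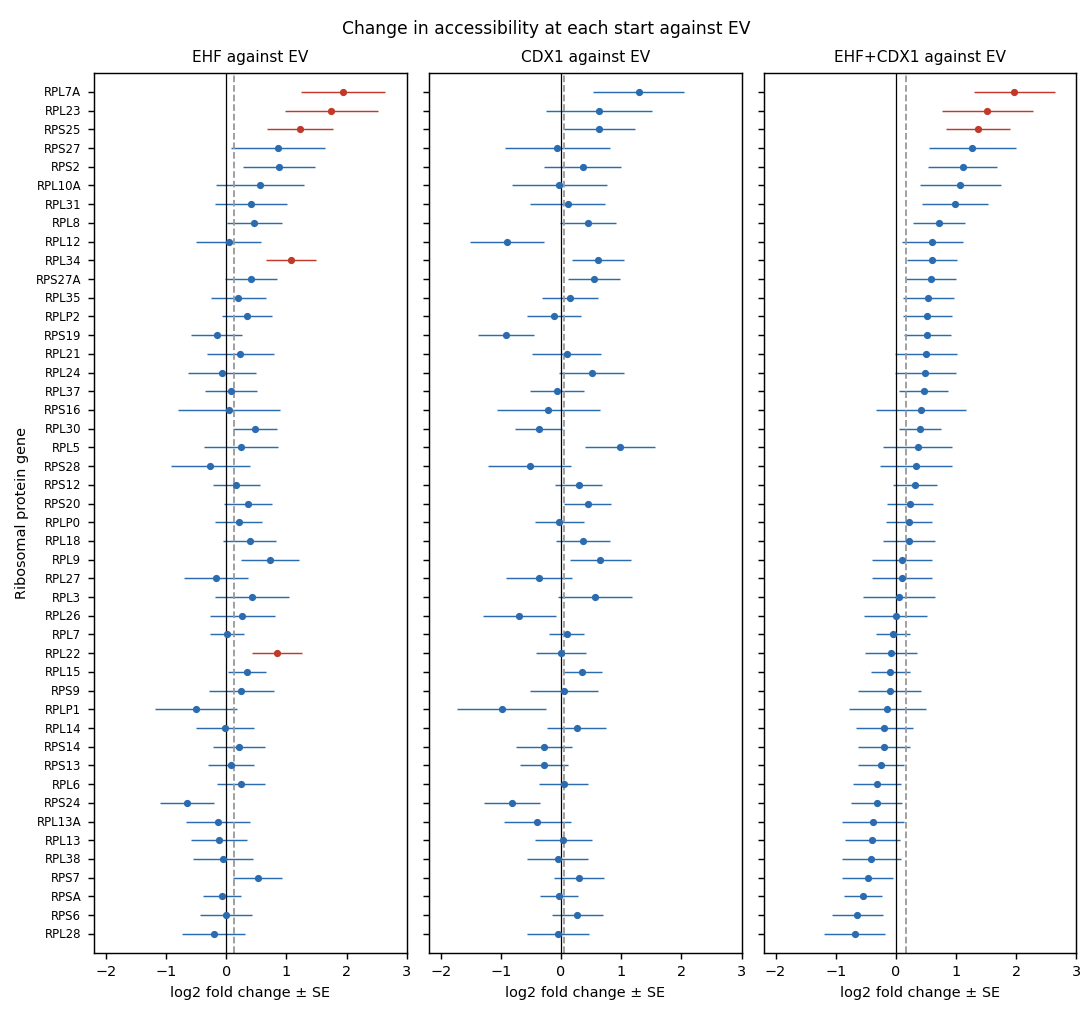
Log2 fold change with its standard error (x axis) at each of the 46 starts for EHF, CDX1 and EHF+CDX1 against EV, with genes in the order of the third comparison; red marks an unadjusted p under 0.05 and the dashed grey line the median over all gene starts. There are 5, 0 and 3 red points, none passed the adjusted threshold, and the members centre at 0.24, 0.04 and 0.22.

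Members were then compared between EHF+CDX1 and each single line. Against EHF, 0 members were called changed and 1.76% of all gene starts were. The median log2 fold change was −0.02 in members and −0.01 over all gene starts, and 2 members had an unadjusted p under 0.05 (4.35%, against 13.7% of all gene starts). RPS7, a small subunit protein that also binds MDM2, had 12, 35 and 22 counts in EHF and 16, 24 and 11 in EHF+CDX1 libraries, or 15.1 ± 4.63 and 8.04 ± 2.26 CPM. Its groups did not overlap, as at 4 members (8.70%) and 17.0% of all gene starts, and its log2 fold change of −0.99 ± 0.38 had an adjusted p of 0.195 in edgeR. RPL22 had 14, 23 and 18 counts in EHF+CDX1 libraries, with a log2 fold change of −0.91 ± 0.38 and overlapping groups. The highest value was at RPS19, a log2 fold change of 0.68 ± 0.37 with overlapping groups.

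Against CDX1, 0 members were called changed and 1.49% of all gene starts were. The median was 0.06 in members and 0.09 over all gene starts, and 4 members (8.70%) had an unadjusted p under 0.05 against 14.5% of all gene starts. RPS19, whose mutations cause Diamond-Blackfan anaemia, was nearest to the threshold. It had 10, 14 and 11 counts in EV, 21, 16 and 9 in EHF, 9, 13 and 3 in CDX1 and 37, 69 and 16 in EHF+CDX1 libraries, or 12.4 ± 3.68, 11.3 ± 6.91, 6.13 ± 2.50 and 17.0 ± 4.50 CPM. The EHF+CDX1 libraries were above every CDX1 library and overlapped the EHF and EV libraries. Such separation from CDX1 was found at 8 members (17.4%) and at 19.0% of all gene starts. The log2 fold change against CDX1 was 1.43 ± 0.41, with an adjusted p of 0.0546 in edgeR. Under 25 alternative settings the adjusted p ran from 0.0104, with the replicate number as a block, to 0.378, with library size alone, and RPS19 was called in 8 of them and no other member in any. Leaving out a library of the compared groups moved the adjusted p in edgeR to 0.0797, 0.249 and 0.200 without CDX1 replicates 1, 2 and 3, and to 0.212, 0.175 and 0.0378 without EHF+CDX1 replicates 1, 2 and 3. Leaving out a library of the other groups, which enter through the shared estimate of the spread, gave 0.0258 to 0.0769, under the threshold without EV replicate 2 and without EHF replicates 1 and 2. In CPM the proximal region had 10.1, 7.71 and 7.49 in EHF+CDX1 against 1.90, 2.42 and 2.37 in CDX1 libraries, and did not overlap. The distal region had 11.9, 7.94 and 5.83 against 6.65, 3.87 and 1.19, and overlapped. RPL12 had 4, 6 and 2 counts in CDX1 and 22, 31 and 8 in EHF+CDX1 libraries, with a log2 fold change of 1.51 ± 0.53 and an adjusted p of 0.141 in edgeR. RPS6 had the lowest value of this comparison, a log2 fold change of −0.91 ± 0.40 with an adjusted p of 0.266 in edgeR.

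The last contrast, the interaction, measured how far EHF+CDX1 cells departed from the added log2 changes of the single lines. It called 0 members, and 0.0294% of all gene starts (4 of 13590). The median was −0.14 in members and −0.07 over all gene starts, and 2 members (4.35%) had an unadjusted p under 0.05 against 7.98% of all gene starts. These were RPS19, with an interaction of 1.58 ± 0.60 and an adjusted p of 0.448 in edgeR, and RPS7, with −1.29 ± 0.57 and an adjusted p of 0.544.

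The precision of the fit limits what the absence of calls can say. The median standard error of a member's log2 fold change was 0.46 for EHF+CDX1 against EV. The 95% interval of the log2 fold change lay wholly within a 2-fold change in either direction for 6 of 46 members in that comparison, 10 for EHF against EV and 9 for CDX1 against EV. For the other members the interval reached past a 2-fold change. Tested region by region in place of gene by gene, 0 of 52 member regions were called in any comparison, by edgeR on the counts or by limma on the deposited log2 values. In the order of the comparisons above, edgeR called 3, 0, 782, 1311, 790 and 37 of all 30154 regions tested. On the deposited values limma called 8, 5, 28, 14, 25 and 0 of 27827, so calls were rare there for any region.

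The members were also described by role. The median log2 fold change against EV of the large subunit members was 0.25, 0.07 and 0.22 in EHF, CDX1 and EHF+CDX1 cells, and that of the small subunit members was 0.19, 0.01 and 0.27. The 3 stalk proteins RPLP0, RPLP1 and RPLP2 had 0 calls, with log2 fold changes against EV of −0.50 to 0.34 for EHF. The ranges were −0.99 to −0.03 for CDX1 and −0.14 to 0.52 for EHF+CDX1. RPLP0, a common reference gene for expression assays, had 11, 15 and 7 counts in EV, 11, 35 and 14 in EHF, 11, 24 and 8 in CDX1 and 18, 50 and 21 in EHF+CDX1 libraries, or 10.96 ± 0.89, 12.4 ± 2.12, 10.5 ± 1.06 and 13.2 ± 3.74 CPM. Its log2 fold changes against EV were 0.21 ± 0.39, −0.03 ± 0.41 and 0.22 ± 0.38, the first 2 of which changed sign under an alternative. RPS27A, made as a fusion with ubiquitin, had 5, 13 and 6 counts in EV and 16, 64 and 12 in EHF+CDX1 libraries, with a log2 fold change of 0.58 ± 0.41.

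Members whose promoter holds the ETS core were set beside the rest, for EHF against EV. The 10 tested members with CCGGAAG had a median log2 fold change of 0.37 with 8 of 10 positive, and the 28 without it a median of 0.12 with 17 positive. Over all protein-coding starts the medians were 0.20 with the letters (1611 genes) and 0.14 without (5997). In CDX1 against EV the member medians with and without the letters were 0.19 and −0.016, and in EHF+CDX1 against EV they were 0.13 and 0.11. All of these comparisons share the EV libraries, so a low EV value enters each of them. In EHF+CDX1 against CDX1, which does not use the EV libraries, the member medians with and without the letters were 0.048 and 0.032. Against EHF they were −0.26 and 0.09. The differences between these medians were not tested. Of the 7 members whose core lay inside the region, RPL34 and RPS25 had values of 1.08 and 1.23 in EHF against EV, RPL18, RPL26, RPL31 and RPS14 had values of 0.21 to 0.41, and RPS6 had −0.0036. Of these values, those of RPL18, RPL26, RPL31, RPS14 and RPS6 changed sign under at least 1 alternative.

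Other genes of ribosome production had no calls either. A further list of 29 cytoplasmic ribosomal protein genes had 19 with a region, at a median of 42.1 CPM per kb, and 0 were called in any comparison. Their median log2 fold changes against EV were 0.21, 0.10 and 0.23 in EHF, CDX1 and EHF+CDX1 cells. Of 39 genes for ribosome assembly and rRNA transcription, such as NPM1, NCL and FBL, 30 had a region and 0 were called, with medians of 0.45, 0.34 and 0.38. Of 17 other genes whose mRNAs carry a TOP tract, among them EEF1A1 and TPT1, 15 had a region and 0 were called, with medians of 0.12, 0.05 and 0.30. These values were not tested against those of the members.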

How the data were processed

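Per the labels and the study's methods, the authors mapped unique reads to hg38 with Subread 2.0.0, called peaks per library with HOMER 4.7 at a fixed false discovery rate, merged them, and deposited raw counts per region from featureCounts 2.0.0. They also deposited log2 CPM values for 27827 of the regions. These equalled log2 CPM recomputed from the counts to within 4.97e-14, so no quantile normalisation is visible in them.

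Regions were assigned to every gene on chromosomes 1 to 22 with a GENCODE v44 transcript start within 1000 bp, and counts were summed per gene. Starts that reached a CPM of 3 or more in any library were kept (13590), scaled by TMM over all regions and tested with edgeR 4.0.16 (R 4.3.3) in 1 robust quasi-likelihood fit of 12 libraries, with 1 coefficient per group. The biological coefficient of variation was 0.238. The standard error of a log2 fold change was taken as its absolute value divided by the square root of the F statistic. Intervals of log2 fold changes use a normal approximation with that error, so they are approximate and can differ from the test. The procedure was run on simulated counts that had the same spread at all starts and took the scaling factors as known. That run could not test the scaling or the differences in composition between libraries. DESeq2 1.42.0, limma 3.58.1, other scalings, filters and windows, and leaving out each library were alternatives. Regions matching mitochondrial DNA were found with blastn 2.17.0 (at least 40 bp at 80% identity). Floors are 3 counts per library.

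The members, gene lists and tests were chosen with earlier results of these data known. Named members are the 5 highest and 5 lowest by level, the 4 highest and 4 lowest in EHF+CDX1 against EV, the highest and the lowest in each other comparison, and 9 with known roles. Every other member named for a sequence, a position or a value, such as RPL34, RPL10A, RPL6, RPL7, RPLP2, RPS28, RPL18, RPL26 and RPL31, falls outside that rule and was named after its values were seen. Replicate numbers came from the titles.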

Additional observations from a re-analysis of the deposited data

How the results depend on the processing

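Of 875 values, 35 printed log2 fold changes of members under 25 alternatives, 847 kept their direction and their side of the threshold, 8 passed the threshold (RPS19 in EHF+CDX1 against CDX1) and 20 changed sign. In EHF against EV, library size alone gave −0.32 at RPLP0, −0.35 at RPL18, −0.49 at RPL26, −0.27 at RPL31 and −0.42 at RPS14. Leaving out 1 library gave −0.23 (without EV replicate 2) to 1.01 at RPL18, −0.25 (without EHF replicate 1) to 0.84 at RPL26, −0.12 (without EHF replicate 1) to 0.94 at RPL31 and −0.35 to 0.30 (without EV replicate 2) at RPS6, which was 0.0022 with the replicate number as a block. RPLP0 in CDX1 against EV ranged from −0.13 to 0.037 (without EV replicate 1). With replicate 2 of every group left out, chosen after seeing the data, RPS7 was 0.065 in EHF+CDX1 against EV, and RPLP0 and RPS6 were −0.039 and 0.014 in EHF against EV.

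Members called in EHF+CDX1 against CDX1 went from 0 to 1, RPS19, with RLE factors, without mitochondrial and exon regions, with voom and quantile normalisation, and with the replicate number as a block (adjusted p of 0.0104 in edgeR), and ranged from 0 to 1 when a library was left out. Of 18 pairs of libraries with the same number, deviations from the group means correlated at −0.0094 to 0.31, with 17 positive but 4 above 0.1, and a library correlated best with its own number in 32 of 36 cases. The S numbers that end the titles also run in consecutive blocks by replicate number, but the titles do not say what they stand for. These are hints, and the replicate numbers were not treated as pairs. The block raised the calls over all gene starts from 254 to 669 in EHF+CDX1 against EV, 239 to 482 against EHF and 203 to 500 against CDX1.

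The median log2 fold change of the members, and that of all gene starts, depended on scaling. With library size alone the member median was −0.42 in EHF against EV, −0.64 in CDX1 against EV, 0.52 in EHF+CDX1 against EHF, 0.85 against CDX1 and 1.10 in the interaction, where all gene starts moved to −0.44, −0.63, 0.55 and 0.76 in the first 4. With TMM over protein-coding starts, DESeq2 and voom the member median was 0.082, 0.091 and 0.10 in EHF against EV, 0.095, 0.10 and 0.058 in EHF+CDX1 against EV, and −0.032, −0.020 and −0.0078 in CDX1 against EV. Under the same settings all gene starts were at −0.013, −0.016 and 0.0022, at 0.018, 0.037 and 0.0054, and at −0.024, −0.022 and 0.0057. RLE factors gave member medians of 0.094 in EHF+CDX1 against EHF, 0.16 against CDX1 and 0.0094 in the interaction. All gene starts were then at 0.12, 0.19 and 0.084. Leaving out 1 library gave member medians of 0.10 to 0.41 in EHF against EV, −0.10 to 0.22 in CDX1 against EV and 0.020 (without EV replicate 2) to 0.40 in EHF+CDX1 against EV. They were −0.19 to 0.10 in EHF+CDX1 against EHF, 0.0043 to 0.20 against CDX1 and −0.36 (without EHF replicate 2) to −0.061 in the interaction. The member share per 1000 counts outside mitochondrial and exon regions was 1.80, 2.32, 2.02 and 2.12 in EV, EHF, CDX1 and EHF+CDX1 cells. In this share the EV and EHF libraries did not overlap. Leaving out 1 library moved the share of start counts over 4.46 to 5.00, 4.93 to 5.39, 4.41 to 4.90 and 4.67 to 4.95.

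Calls over all gene starts in EHF+CDX1 against EV, EHF and CDX1 were 182, 74 and 61 with DESeq2, 60, 156 and 218 with voom, 18, 86 and 102 with library size alone and 420, 261 and 228 with TMM over protein-coding starts. Leaving out EHF+CDX1 replicate 2 gave 42, 51 and 32. Member starts held a median of 11 counts a library, which left a median standard error of 0.46 in EHF+CDX1 against EV. Causes were not tested.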
